A study of Mus musculus with 14 samples.

Results

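The genes described here encode the subunits of the mitochondrial respiratory chain and of ATP synthase. Members were every gene whose symbol starts with Nduf (the assembly factors Ndufaf left out), Uqcr, Cox4 to Cox8 or Atp5, together with Sdha, Sdhb, Sdhc, Sdhd and Cyc1. The rule used symbols only and no measured value. It found 87 of the 22851 genes in the expression tables. They comprised 39 genes of complex I, 4 of complex II, 9 of complex III, 18 of complex IV and 17 of complex V. The complex I count held the pseudogene Ndufs5-ps, and Ndufa4 and Ndufab1, which are named after complex I but also work elsewhere, in cytochrome c oxidase and in mitochondrial fatty acid synthesis respectively.

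Complexes I to IV pass electrons from NADH and succinate to oxygen and, complex II apart, pump protons out of the mitochondrial matrix. Complex V, the ATP synthase, lets protons flow back and makes ATP. The nuclear subunits studied here are used in nearly every cell and are most abundant in tissues with a high energy demand, such as skeletal and heart muscle, and several complex IV subunits have a second isoform that is confined mainly to striated muscle or to testis.

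The study asked what TAF9B, a TBP-associated factor encoded on the X chromosome, does in mouse cells that are turned into motor neurons. RNA was sequenced from C57BL/6 embryonic stem (ES) cells, from embryoid bodies (EBs) after 2, 4 and 6 days of motor neuron differentiation, from newborn spinal column and from spinal cord, with 1 library per condition and 11 in all. The wild-type (WT) cultures came from the JM8 clone and the TAF9B -/- (KO) cultures from a single clone, Taf9b_BG10, whose Taf9b coding exons were exchanged for LacZ and Neo. The spinal columns were whole lumbar columns of newborn littermates, WT and TAF9B -/-, so they held vertebrae and muscle beside nervous tissue. The spinal cord was also newborn and WT only. The EBs were directed to motor neurons with retinoic acid and SAG, an agonist of Smoothened in the sonic hedgehog pathway. TAF9B and RNA polymerase II (POL2) chromatin immunoprecipitation had been made in WT motor neuron EBs of the HBG3 line, which carries a GFP reporter of motor neurons. The EBs for immunoprecipitation were differentiated for 8 days, so the peaks and the day 6 libraries differ in cell line and in day.

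Expression is given in FPKM, fragments per kilobase of transcript scaled to the size of the library. With 1 library per condition no difference between conditions had a replicate check, no test was run, and every ratio compares 2 libraries. Depth could not be read from FPKM. Taf9b itself was listed higher in the library labelled KO than in the library labelled WT in all 4 cultures, at 0.537 against 3.06 FPKM in WT and KO ES cells and at 1.37 against 4.01 FPKM at day 6. In spinal column it was lower in the library labelled KO, at 3.31 FPKM against 6.65 FPKM in WT, and it was listed above 0 in every library labelled KO. The text therefore speaks of the library labelled WT or KO throughout. The tables were normalized separately, and levels set across them are a description.

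The genes were abundant everywhere. The median over the 87 genes was lowest in the day 4 KO library, at 140.6 FPKM, and highest in the spinal column KO library, at 507.9 FPKM. In the ES cell WT library it was 145.8 FPKM, against a median of 11.2 FPKM over all genes above 1 FPKM. Their summed FPKM made up 3.30% and 3.37% of the total in WT and KO ES cells, 2.94% and 2.87% at day 2, 2.86% and 2.62% at day 4, and 4.15% and 3.60% at day 6. The tissues held more, with 6.28% in the WT spinal column, 8.85% in the KO spinal column and 5.32% in the spinal cord.

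**Figure D1:**
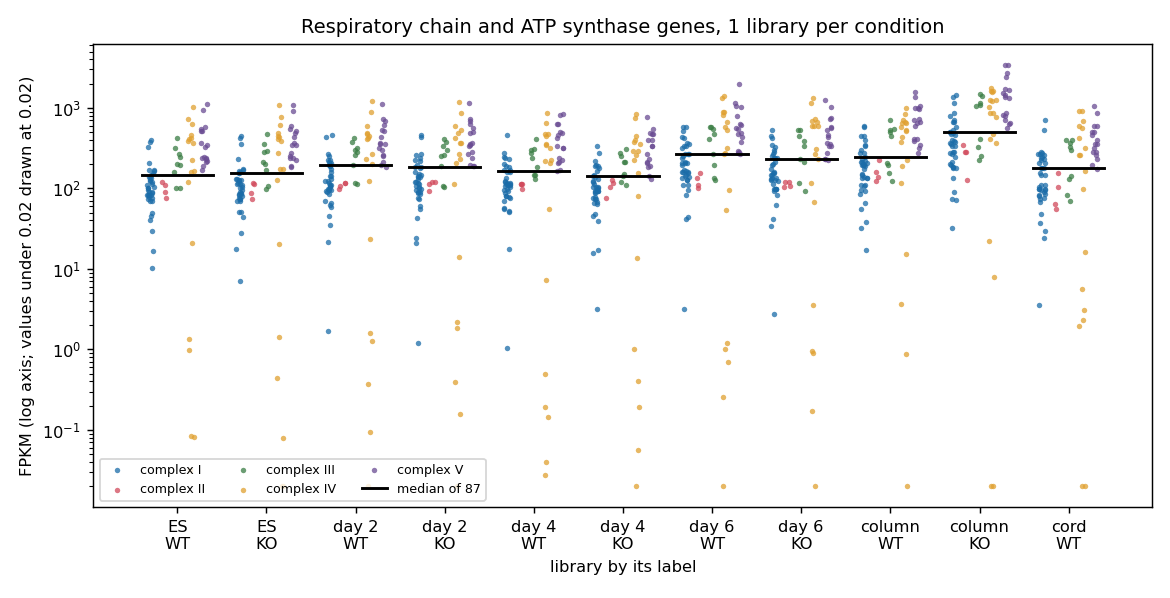
FPKM (log axis) of the 87 genes in each of the 11 libraries, named by their labels; each point is a gene, coloured by complex, and the bar is the median over the genes. The medians lie between 140.6 and 507.9 FPKM, and the few points under 10 FPKM are mostly tissue-restricted complex IV isoforms.

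Ranked by the median over the 11 libraries, the 10 most abundant genes were all of complexes IV and V. Atp5b, the catalytic beta subunit of ATP synthase, led with a median of 1125 FPKM and a range from 497.2 to 1516 FPKM. Cox7c, a small structural subunit of cytochrome c oxidase, followed at 1089 FPKM, and Atp5k, the e subunit of the membrane part of ATP synthase, at 947.8 FPKM. Atp5k also had the widest range of the 3, from 492.8 to 3368 FPKM. The next were Cox4i1 (739.3 FPKM), Cox8a (727.1), Atp5g2 (630.3), Atp5a1 (577.4), Atp5g3 (558.9), Atp5j2 (548.8) and Cox6a1 (532.2 FPKM). Atp5g1, Atp5g2 and Atp5g3 encode an identical mature c subunit. How alike their mRNAs are was not checked, and any reads shared between them would make their separate levels uncertain.

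By complex, the median level over the genes of complex V was 328.3 FPKM in WT ES cells, that of complex III was 203.9, that of complex IV 193.1, that of complex I 99.9 and that of complex II 99.7 FPKM. Complex V had the highest median and complexes I and II the lowest in each of the 11 libraries. Complex I was above complex II in the day 6 and tissue libraries, for example at 196.0 against 123.3 FPKM in the day 6 WT library, and the 2 were close in the earlier cultures.

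A few sequences are given first for orientation, since the regulatory data below turn on them. The study had designed quantitative PCR primers for 2 of the genes, Atp5j, which encodes coupling factor 6 of ATP synthase, and Atp5k. On the annotated mRNAs (GENCODE vM1) the Atp5j pair spans bases 365 to 566, a product of 202 bases, and the Atp5k pair bases 98 to 234, a product of 137 bases.

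Atp5j forward: cgggactcagtgcaagtaca
Atp5j reverse: agatgcctgtcgctttgatt
Atp5k forward: cggttcaggtctctccactc
Atp5k reverse: cttcttttcctccgctgcta

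The second set shows the 150 bases before a transcription start for 3 widely expressed genes with a searched motif and for 2 pairs of isoforms of complex IV, 1 expressed widely and 1 mainly in muscle. The sequences are from RefSeq promoters (GRCm38.p6), and each was found once, unchanged, in mm9, the build of the study. Capitals mark the searched motifs: NRF1 (GCATGCGC), YY1 (AAGATGGC) and SP (GGGGCGGG), each on either strand. Atp5k, at chr5:108863419-108863568 on the minus strand, holds an NRF1 palindrome in which both orientations overlap. Atp5j, at chr16:84835222-84835371 on the minus strand, holds a YY1 motif, and Sdhb, which encodes the iron-sulphur subunit of complex II, at chr4:140517036-140517185 on the plus strand, holds an NRF1 motif and a pair of SP motifs. Atp5j has a second start, whose window (chr16:84835871-84836020, minus) holds an SP motif and no YY1 motif and is not printed. The Cox8a window (chr19:7292107-7292256, minus) ends inside a match of the ETS motif of GABP on the opposite strand, which begins 6 bases before the start and runs past it, so it is not in capitals. None of the 5 searched motifs fell in the windows of Cox8b (chr7:148086346-148086495, minus), Cox7a2 (chr9:79607661-79607810, minus) and Cox7a1 (chr7:30969040-30969189, plus).

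Atp5k: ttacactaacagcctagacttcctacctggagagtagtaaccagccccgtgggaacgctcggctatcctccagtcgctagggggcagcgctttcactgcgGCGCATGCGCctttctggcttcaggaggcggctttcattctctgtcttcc
Atp5j: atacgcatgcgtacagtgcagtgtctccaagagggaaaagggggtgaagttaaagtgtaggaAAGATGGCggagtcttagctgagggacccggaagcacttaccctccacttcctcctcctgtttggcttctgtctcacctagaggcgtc
Sdhb: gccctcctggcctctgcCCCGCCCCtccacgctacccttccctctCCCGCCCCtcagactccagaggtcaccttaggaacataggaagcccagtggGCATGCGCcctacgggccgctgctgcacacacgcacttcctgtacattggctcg
Cox8a: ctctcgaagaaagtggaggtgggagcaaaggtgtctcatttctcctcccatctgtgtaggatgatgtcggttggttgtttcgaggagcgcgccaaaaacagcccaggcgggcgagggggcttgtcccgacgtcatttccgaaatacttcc
Cox8b: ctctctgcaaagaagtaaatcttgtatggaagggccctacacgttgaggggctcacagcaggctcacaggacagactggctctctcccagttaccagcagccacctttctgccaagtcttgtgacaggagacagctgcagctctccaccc
Cox7a2: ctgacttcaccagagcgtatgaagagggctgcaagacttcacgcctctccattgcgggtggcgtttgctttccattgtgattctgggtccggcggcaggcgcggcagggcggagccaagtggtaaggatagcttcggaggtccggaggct
Cox7a1: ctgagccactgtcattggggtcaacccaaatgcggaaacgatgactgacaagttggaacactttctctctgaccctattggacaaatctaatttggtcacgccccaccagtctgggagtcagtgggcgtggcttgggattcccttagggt

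In ES cells the KO and WT libraries gave nearly the same levels for the respiratory genes. Of the 83 genes above 1 FPKM in at least 1 library, 61 were higher and 22 lower in the KO library, with a median log2 ratio of 0.07 beside 0.02 over all genes. None was past 2-fold higher, beside 0.459% of all genes, and none past 2-fold lower, beside 0.585%. The largest shift was in Ndufa4l2, a paralogue of Ndufa4 that is induced by low oxygen in many cells, which was at 10.4 FPKM in WT and 7.17 in KO (log2 ratio -0.53). Atp5l, the g subunit of ATP synthase, was highest in the other direction at 246.0 and 344.4 FPKM (0.49). The extremes of the other complexes were smaller still, namely Ndufa3 (0.24) at the upper end of complex I, Sdhd (0.05) and Sdha (-0.05) in complex II, Uqcrb (0.19) and Uqcrc2 (-0.04) in complex III, Cox7a2 (0.29) and Cox7a1 (-0.04) in complex IV and Atp5g2 (-0.07) at the lower end of complex V.

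At day 2 the 2 libraries were again close, without the lean to higher values in KO. Of 84 genes above 1 FPKM, 40 were higher and 44 lower in the KO library, and the median log2 ratio was -0.01 beside 0.002 over all genes. None was past 2-fold in either direction, beside 1.15% of all genes higher and 1.35% lower. Cox7a1, the muscle isoform of subunit 7a, was at 23.6 FPKM in WT and 14.2 in KO (-0.73), and the pseudogene Ndufs5-ps at 35.3 and 21.3 FPKM (-0.73). At the other end Cox6a2, the muscle isoform of subunit 6a, was near 1 FPKM, at 1.26 and 1.86 (0.56). Within the other complexes the log2 ratios ran from -0.10 (Sdhc) to 0.06 (Sdhb), from -0.16 (Uqcrc2) to 0.12 (Uqcrq) and from -0.12 (Atp5g1) to 0.16 (Atp5e), and the highest of complex I was Ndufs8 (0.25).

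At day 4 most respiratory genes were somewhat lower in the KO library. Of 83 genes, 65 were lower and 18 higher, and the median log2 ratio was -0.17 beside -0.03 over all genes and -0.14 over the 901 other genes above 100 FPKM. With the trend of the ratio with transcript length removed (the trend is described with the spinal column), the median was -0.09, with 54 lower and 28 higher. Complex IV then turned from a median of -0.03 to 0.13, with 10 of 14 genes higher. Only Ndufs5-ps was past 2-fold lower, beside 4.37% of all genes, at 57.0 FPKM in WT and 15.6 in KO. Cox6a2 (0.194 and 1.01 FPKM) and Ndufa4l2 (1.05 and 3.15 FPKM) were past 2-fold higher, beside 12.1% of all genes, and both stood near the 1 FPKM limit. As a pseudogene Ndufs5-ps is a copy of Ndufs5, which was at 77.8 FPKM in WT and 92.3 in KO. The 2 sequences were not compared, so the division of reads between them is uncertain.

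Among the genes above 100 FPKM in both day 4 libraries, Ndufa1, a small membrane subunit of complex I encoded on the X chromosome, had the largest shift, at 190.4 FPKM in WT and 103.9 in KO (-0.87). Atp5k followed at 807.2 and 492.8 FPKM (-0.71). In complex II the range was from Sdhb (-0.40) to Sdhd (0.16), in complex III from Uqcr11 (-0.48) to Uqcrb (0.01), in complex IV Cox7b (-0.46) was lowest, and in complex V Atp5e (0.27) was highest.

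Day 6, when the cultures are labelled as motor neuron EBs, had the broadest shift among the cultures. Of 84 genes above 1 FPKM, 73 were lower and 11 higher in the KO library, against 50.2% lower over all genes, and the median log2 ratio was -0.27 beside -0.004 over all genes and -0.07 over the 1085 other genes above 100 FPKM. Complexes I and V carried it, with 37 of 39 and 16 of 17 genes lower and medians of -0.30 in both. Complex III had 8 of 9 lower (-0.15), complex IV 10 of 15 (-0.07) and complex II 2 of 4 (-0.14). With the length trend removed the median over the genes was -0.18, with 65 lower and 18 higher, and complex IV turned to 0.03, with 8 genes higher and 7 lower, while complexes I and V were at -0.24 and -0.26. The shift was small for each gene: none was past 2-fold lower, beside 9.92% of all genes, and only Cox6a2, at 1.20 and 3.59 FPKM, was past 2-fold higher, beside 10.5%.

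Atp5k was the protein-coding gene with the lowest ratio at day 6, at 1958 FPKM in the WT and 1032 in the KO library (-0.92). Its level in the 4 WT cultures was 947.8, 687.6, 807.2 and 1958 FPKM in ES cells and at days 2, 4 and 6, and in the KO cultures 910.2, 689.8, 492.8 and 1032 FPKM. The libraries of both labels were close in ES cells and at day 2, and the KO library was the lower at days 4 and 6. Atp5j, the other gene with primers, was at 264.8 FPKM in WT and 229.1 in KO at day 6.

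Other genes near the lower end at day 6 were Ndufv3, a subunit of the NADH-binding arm, at 206.8 and 127.6 FPKM (-0.70), the X-linked Ndufb11 at 206.1 and 135.9 (-0.60), and Ndufa5 at 134.7 and 92.1 (-0.55). Uqcrfs1, the Rieske iron-sulphur protein of complex III, was at 133.0 and 93.8 FPKM (-0.50). Ndufs5-ps was at 166.1 and 83.2 FPKM (-0.997) and its coding relative Ndufs5 at 125.8 and 155.2 FPKM, the highest ratio of complex I (0.30). The remaining extremes were Sdhc (-0.38) and Sdha (0.14), Uqcrc1 (0.13), Cox6b1 (-0.42) and Atp5b (0.10).

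At day 6 other gene groups differed far more than the respiratory genes did. Of 11 neuron markers, 10 were past 2-fold lower in the KO library, beside 9.92% of all genes, with a median log2 ratio of -3.69 and a sum of 1076 FPKM in WT and 143.0 in KO. All 6 ES cell markers were higher in the KO library (median 1.52, sum 1368 and 3966 FPKM). The part of this difference in makeup in the respiratory gene values was not tested, and fewer cells of a type and less RNA per cell cannot be told apart in bulk RNA. At day 4 all 6 ES cell markers were past 2-fold higher in the KO library, beside 12.1% of all genes (sum 107.9 and 798.6 FPKM).

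**Figure D2:**
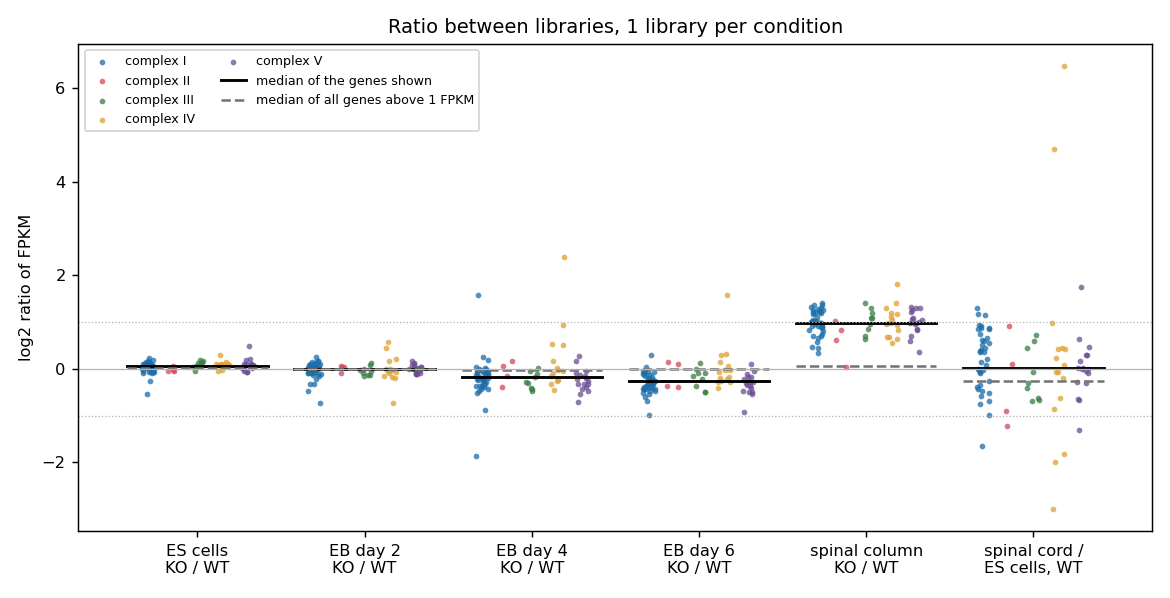
Log2 ratio of FPKM for the genes above 1 FPKM in at least 1 library of each pair, by complex; 5 pairs are the KO-labelled over the WT-labelled library and the last is WT spinal cord over WT ES cells. Black bars are the medians of the genes shown, grey dashes those of all genes above 1 FPKM, and dotted lines mark 2-fold; Cox7b2, listed at 0 in spinal cord, is not drawn. The medians move from 0.07 in ES cells to -0.27 at day 6 and to 0.98 in spinal column.

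The spinal column stood apart. All 85 genes above 1 FPKM were higher in the KO than in the WT library, with a median log2 ratio of 0.98 beside 0.06 over all genes. Past 2-fold higher were 42 of the 85, beside 8.99% of all genes, and none was past 2-fold lower, beside 8.55%. The median log2 ratio was 1.005 in complex I, 1.001 in complex V, 1.09 in complex III, 0.97 in complex IV and 0.72 in complex II. Other abundant genes were shifted in the same direction by less: of 926 other genes above 100 FPKM, 84.0% were higher and 23.2% past 2-fold higher, with a median of 0.66.

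Among the 5 highest ratios, Cox7a1 was at 116.4 FPKM in the WT and 408.4 in the KO column (3.51-fold). Ndufs6, an accessory subunit of the iron-sulphur arm of complex I, was at 217.4 and 574.7 FPKM (2.64-fold), Uqcrh, the hinge protein of complex III, at 531.7 and 1405 FPKM (2.64-fold), Cox7c at 668.3 and 1762 FPKM (2.64-fold) and Ndufb4 at 443.6 and 1148 FPKM (2.59-fold). All 5 have short transcripts, with the longest annotated form between 364 and 971 bases. The split by length was not clean. Ndufv2 (1540 bases), Atp5e (1697 bases) and Ndufs4 (1534 bases) had log2 ratios of 1.37, 1.33 and 1.27, though Atp5e also has a coding form of 421 bases.

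The 5 lowest ratios belonged to genes with longer transcripts. Sdha, the flavoprotein of succinate dehydrogenase, was at 124.4 FPKM in WT and 128.7 in KO (1.03-fold), and Ndufs1, the largest iron-sulphur subunit of complex I, at 56.1 and 70.9 FPKM (1.26-fold). Atp5a1, the alpha subunit of ATP synthase, was at 660.7 and 852.1 FPKM (1.29-fold), Ndufa10 at 133.2 and 180.5 (1.36-fold) and Ndufv1, the flavoprotein of complex I, at 133.9 and 185.3 (1.38-fold). Their longest transcripts measure 1661 to 2918 bases, a range that also holds the longest form of Atp5e (1697 bases). The remaining extremes were Sdhd (2.04-fold), Uqcrc1 (1.56-fold), Cox6b2 (1.47-fold) and Atp5e (2.51-fold).

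The ratio between the 2 spinal column libraries followed transcript length across the whole transcriptome. For genes that are not members, the median log2 ratio was 0.94 where the longest GENCODE transcript has 500 to 750 bases, 0.58 at 1000 to 1500 bases, 0.05 at 2500 to 4000 bases and -0.41 above 4000 bases. The lowess curve through all genes went from 1.14 at 300 bases to -0.48 at 6000 bases. The respiratory genes are short, with a median of 929.5 bases (86 of 87 with a length) against 3054 bases for all genes above 1 FPKM.

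Within a length class the members lay above the other genes. Their median log2 ratio was 1.03 beside 0.94 at 500 to 750 bases (23 members), 1.003 beside 0.78 at 750 to 1000 bases (18 members), 0.83 beside 0.58 at 1000 to 1500 bases (13 members), 0.88 beside 0.32 at 1500 to 2500 bases (13 members) and 0.90 beside 0.05 at 2500 to 4000 bases (8 members). The classes of long transcripts are less sure, because of 11 members with a longest transcript over 2500 bases, 4 also have a consensus coding transcript under 1000 bases.

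After the length curve was subtracted, the median over 84 members (Ndufs5-ps, one of the 42, has no length and was left out) was 0.25, with 74 above and 10 below 0, and 5 were past 2-fold in place of 42, beside 4.81% of all genes. Ndufa11, Ndufab1 and Ndufb7 were among the 42, whereas Atp5g1 and Ndufb2 were at 0.98 and 0.89 before the subtraction and passed 2-fold only after it. All 5 have a long annotated form (2661 to 4715 bases). With the shortest consensus coding transcript as the length, the median was 0.27 and 2 genes, Ndufa11 and Ndufv2, both among the 42, were past 2-fold, beside 4.48% of all genes. With coding length it was 0.37 and none did, beside 4.17% of all genes, and with the median transcript of a gene it was 0.59 with 6 genes past 2-fold, beside 5.47% of all genes. Other genes above 100 FPKM had a median of 0.14 after the same subtraction with the longest transcript. It was 0.15 with the shortest consensus coding transcript, 0.22 with coding length and 0.36 with the median transcript. By complex the median left after subtraction was 0.26 in complex I, 0.25 in complex II, 0.33 in complex III, 0.07 in complex IV and 0.22 in complex V.

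**Figure D3:**
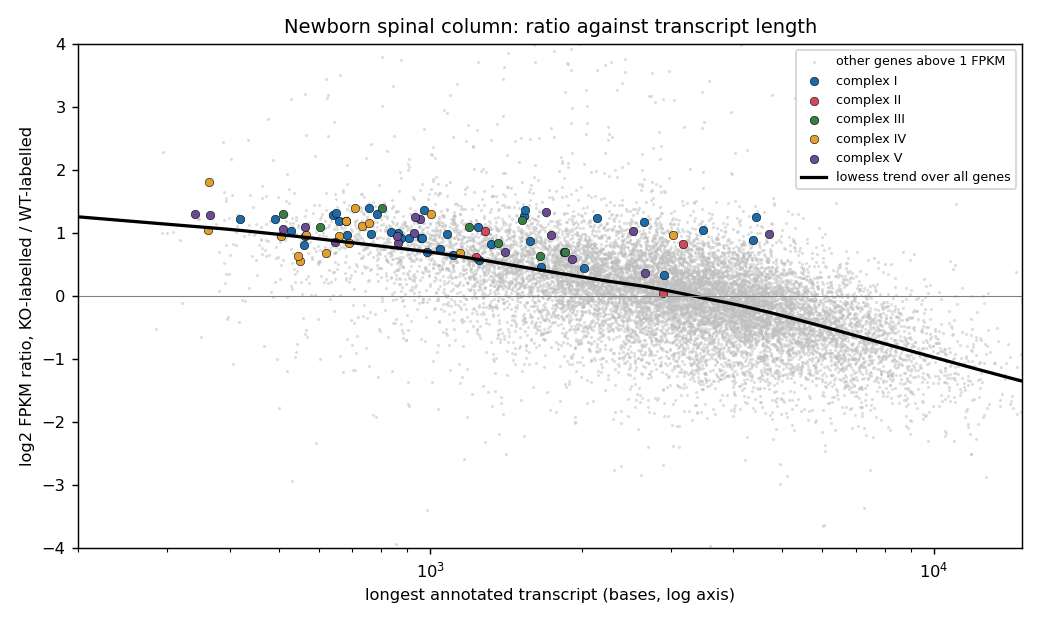
Log2 FPKM ratio of the KO-labelled over the WT-labelled spinal column library (vertical axis, cut at -4 and 4) against the length of the longest annotated transcript (log axis) for genes above 1 FPKM; grey points are other genes, coloured points are respiratory genes by complex, and the line is the lowess curve. The curve falls from 1.14 at 300 bases to -0.48 at 6000 bases, and 74 of 84 respiratory genes lie above it.

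Complex II gave a comparison inside 1 enzyme, whose 4 subunits are needed in equal number. Sdha was level across the cultures and both spinal columns, between 110.7 and 128.7 FPKM in those 10 libraries, and lower in spinal cord at 56.2 FPKM. Sdhb ran from 73.9 FPKM in the KO ES cells to 348.6 FPKM in the KO spinal column. Sdhc, a membrane anchor, was at 161.1 FPKM in the WT and 284.6 in the KO column, and Sdhd, the other anchor, at 139.7 and 285.5 FPKM.

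Sdha is also the member whose ratio in spinal column moved least, and its log2 ratio was -0.05 after the length curve was subtracted, beside 0.04 for Sdhb, 0.47 for Sdhd and 0.78 for Sdhc. The 4 genes of the complex thus had WT levels within 124.4 to 226.0 FPKM and KO levels within 128.7 to 348.6 FPKM in the column.

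The muscle isoforms of complex IV marked the spinal column libraries. Cox6a2, listed at 0.0316 to 3.59 FPKM in the 9 other libraries, was at 647.1 FPKM in the WT and 1254 in the KO column, where it made up 54.8% and 59.5% of Cox6a1 and Cox6a2 together. Cox8b, listed at 0 to 2.34 FPKM elsewhere, was at 582.7 and 1206 FPKM (36.7% and 43.5% of the pair with Cox8a). Cox7a1 was at 116.4 and 408.4 FPKM, or 23.4% and 32.3% of the pair with Cox7a2, and was not confined to the column: at day 6 it was at 54.4 FPKM in WT and 67.4 in KO (14.8% and 18.0%).

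All 3 muscle isoforms took a larger share of their pair in the KO than in the WT column. The longest transcripts of each pair measure 620 and 658 bases for Cox6a1 and Cox6a2, 545 and 362 for Cox8a and Cox8b, and 754 and 364 for Cox7a2 and Cox7a1. After the length curve was subtracted, the log2 ratio was 0.08 for Cox6a2 beside -0.22 for Cox6a1, -0.04 for Cox8b beside -0.31 for Cox8a, and 0.73 for Cox7a1 beside 0.35 for Cox7a2, so the muscle isoform stood above its partner in each pair. Without the 3 muscle isoforms the median log2 ratio in the column was still 0.98, with 40 genes past 2-fold higher.

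Of 15 skeletal muscle markers, 5 had no estimate in 1 or both column libraries, where the table marks the gene as too deeply covered to quantify: Acta1 is listed at 0 in both, Ckm, Mylpf and Myl1 at 0 in KO and Myh8 at 0 in WT. The other 10 summed to 12218 FPKM in the WT and 21442 in the KO column, 7 were higher and 3 lower in KO (median log2 ratio 0.44), and after the length curve was subtracted the median was 0.09. In the cultures the same 10 summed to 5.66 to 11.9 FPKM and in spinal cord to 91.2 FPKM. With the 5 others included, the sum was 12.2 FPKM in WT and 81.9 in KO at day 4, 156.5 and 438.7 at day 6, 190.3 and 246.9 in ES cells and 322.7 FPKM in spinal cord. Mylpf, a fast muscle myosin light chain, made up most of it in the ES cell and day 6 libraries, for example 423.8 FPKM in the day 6 KO library.

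Markers of other tissues differed as well. The list of brown fat markers summed to 220.7 FPKM in the WT and 520.2 in the KO column, mostly Fabp4 (203.5 and 485.3 FPKM). Of 4 measured above 1 FPKM, all were higher in KO (median log2 ratio 2.12). After the length curve was subtracted the median was 1.52, with 3 of 4 above 0. Cidea was at 16.3 and 20.7 FPKM, and Ucp1, the defining gene of that tissue, is listed at 0 in both. The sums therefore cannot be read as an amount of brown fat. Erythroid markers summed to 2959 and 5419 FPKM, mostly Hba-a2, and 3 of 4 were higher in KO (median 0.84, and 0.34 after subtraction). All 11 neuron markers were lower in KO (median -1.52, sum 1213 and 628.4 FPKM), and 11 stayed below 0 after the length curve was subtracted (median -1.22). The part of these differences in the respiratory gene ratios was not tested.

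The remaining isoforms followed other patterns. Cox6b2, the testis isoform of subunit 6b, was expressed in ES cells at 119.2 FPKM in WT and 128.4 in KO, 20.7% and 21.0% of its pair with Cox6b1. It was at 95.7 and 116.9 FPKM at day 6 (9.72% and 14.96%), at 15.2 and 22.3 FPKM in spinal column and at 16.2 FPKM in spinal cord (2.33%). Cox4i2, the isoform of subunit 4 tied to lung and to low oxygen, stayed between 0.370 and 7.91 FPKM and under 0.51% of its pair with Cox4i1 everywhere. Cox7b2 and Cox8c, isoforms reported mainly in testis, were at most 2.18 and 1.02 FPKM.

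**Figure D4:**
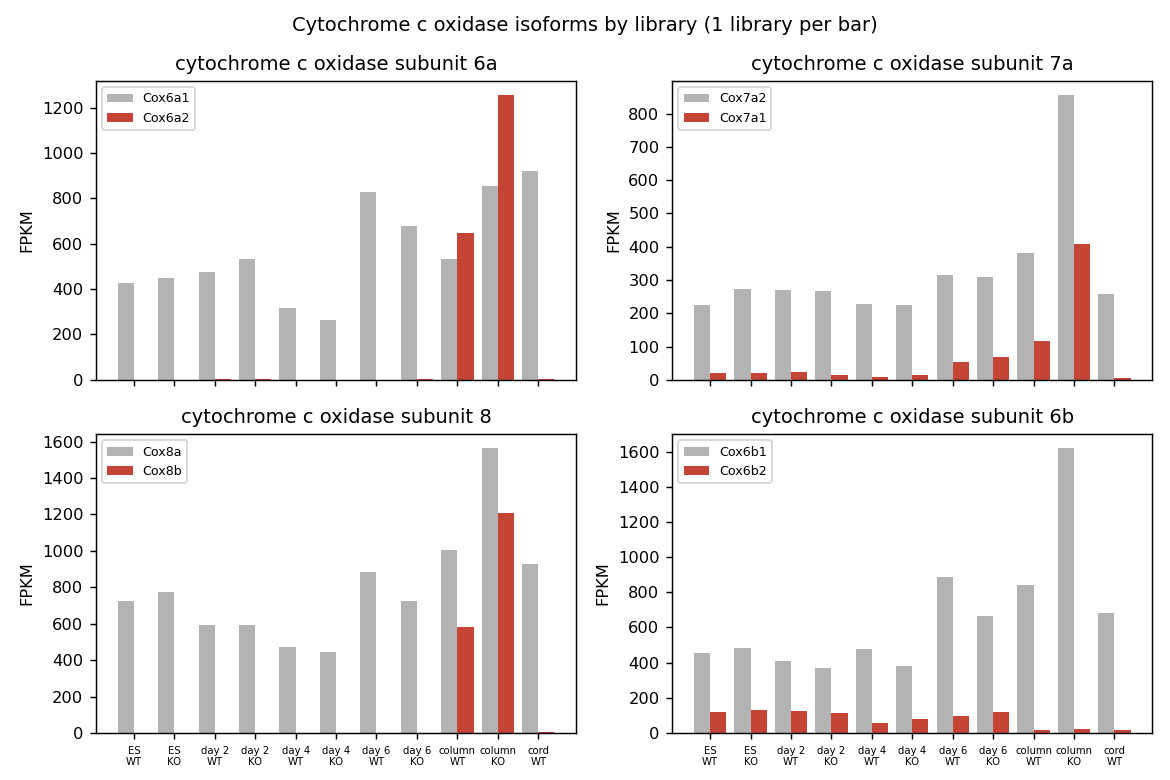
FPKM (linear axis from 0) of 4 complex IV isoform pairs in the 11 libraries, 1 library per bar; grey is the common isoform and red the tissue-restricted one. Cox6a2 and Cox8b stand above 500 FPKM only in the 2 spinal column libraries, Cox7a1 reaches 116.4 and 408.4 FPKM there, and Cox6b2 stands between 95.7 and 128.4 FPKM in the ES cell, day 2 and day 6 libraries.

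Genes listed at 0 were all isoforms of complex IV. Cox8b is listed at 0 in 5 libraries (KO ES cells, WT at day 2, KO at day 4 and both at day 6), Cox8c also in 5 (KO ES cells, KO at day 2, both spinal columns and spinal cord) and Cox7b2 in 2 (KO spinal column and spinal cord). No fold is given for them against those libraries.

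Spinal cord was compared with ES cells, both WT, in a table of their own. Of 86 genes above 1 FPKM, 45 were higher and 41 lower in cord, and the median log2 ratio was 0.02 beside -0.26 over all genes and -1.28 over the 1154 other genes above 100 FPKM. Past 2-fold higher were 6, beside 30.4% of all genes, and 7 were past 2-fold lower, beside 35.7%. By these counts a smaller share of the respiratory genes than of all genes was past 2-fold in this pair of libraries. Centred on the median of all genes, their median was 0.29, with 15 past 2-fold higher and 6 lower. With the length trend removed it was 0.36, with 17 higher and 6 lower. Shares over all genes were not taken under these 2 settings.

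Among the 6 genes past 2-fold higher in cord, Atp5md, a small ATP synthase subunit known as DAPIT, was at 258.6 FPKM in ES cells and 875.7 in cord (3.39-fold), Ndufa5 at 79.5 and 178.3 (2.24-fold) and Ndufs5 at 108.8 and 241.1 (2.22-fold). Ndufs5-ps was at 32.5 and 79.5 FPKM (2.45-fold). Cox6a2 (0.0344 and 3.06 FPKM) and Cox8b (0.0901 and 2.34 FPKM) were low in both, and most skeletal muscle markers were higher in the cord library. Of the 13 markers above 1 FPKM, 9 were past 2-fold higher, beside 30.4% of all genes, with a median log2 ratio of 4.83. The other 4, Actn3, Mb, Mylpf and Ryr1, were past 2-fold lower, beside 35.7% of all genes. The 10 that also had estimates in the column went from 11.3 FPKM in ES cells to 91.2 in cord and Acta1, skeletal muscle actin, from 11.3 to 111.7, whereas Mylpf was at 184.7 and 52.5 FPKM. The part of this difference in the values of Cox6a2 and Cox8b was not tested.

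On the lower side in cord, Cox6b2 was at 129.8 FPKM in ES cells and 16.2 in cord and Cox7a1 at 22.6 and 5.69. Cox7c was at 1119 and 318.5 FPKM, Ndufa4l2 at 11.3 and 3.58, Atp5b at 1229 and 497.2 and Sdha at 130.8 and 56.2 FPKM. Cox7b2 was at 1.07 FPKM in ES cells and is listed at 0 in cord. The complexes were ordered with complex I highest (median 0.35), then V (0.003), IV (-0.06), III (-0.30) and II (-0.40), where Sdhb (0.92) and Sdha (-1.22) lay at opposite ends. With the length trend removed the medians were 0.58, 0.32, 0.32, -0.0007 and -0.09 in the same order of complexes. In complex III the extremes were Uqcrh (0.72) and Cyc1 (-0.69).

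Genes that work with the respiratory chain were read from fixed lists. The 14 TCA cycle enzymes had a median log2 ratio of -0.29 at day 4, -0.12 at day 6, 0.45 in spinal column (13 of 14 higher, none past 2-fold) and -0.35 for cord over ES cells. The 42 assembly factors of the complexes were at -0.17, -0.14, 0.68 (40 higher) and -0.56. In spinal column 11 of them were past 2-fold higher, beside 8.99% of all genes, and 3 with the length trend removed, beside 4.81% of all genes. The 18 glycolytic genes were at -0.41 at day 4 and -0.04 at day 6. In spinal column the 17 with an estimate had a median of 0.13, with 9 higher and 8 lower, none past 2-fold higher and 1 past 2-fold lower, beside 8.55% of all genes, and -0.19 with the length trend removed. For cord over ES cells the 18 were at -1.90, with 13 past 2-fold lower, beside 35.7% of all genes, and 4 higher, beside 30.4%.

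The regulators of mitochondrial biogenesis had a median of -0.22 at day 4 and of 0.14 at day 6, where 9 of the 14 above 1 FPKM were higher in the KO library. All 16 gave 0.16 in spinal column, with none past 2-fold (0.19 with the length trend removed by the longest transcript and -0.007 by the shortest consensus coding transcript), and -1.56 for cord over ES cells, with 12 past 2-fold lower, beside the same 35.7%. The list of cytochrome c, phosphate and ADP/ATP carriers and outer membrane channels had a median of -0.05 at day 6 (3 of 8 higher) and 0.52 in spinal column (7 of 7 higher, 1 past 2-fold, beside 8.99% of all genes). Its highest ratio in the column was that of Cycs. Cycs, which shuttles electrons from complex III to complex IV, was at 55.5 FPKM in the WT and 128.7 in the KO column. Slc25a4, the ADP/ATP carrier of muscle and heart, was at 1465 and 2433 FPKM there and at 524.8 and 341.5 FPKM at day 6, the lowest ratio of the list (-0.62), where Vdac1, an outer membrane channel, was the highest (0.43). After the length curve was subtracted, the assembly factors in spinal column had a median of 0.29, the TCA cycle enzymes of 0.18 and the carriers and cytochrome c of 0.08 (5 higher, 2 lower), beside 0.25 for the respiratory genes.

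TAF9B was bound near the start of a part of the respiratory genes in the HBG3 motor neuron EBs. A TAF9B peak midpoint lay within 500 bp of an annotated start for 33 of the 86 members with a GENCODE start, or 38.4% (95% Wilson interval 28.8 to 48.9%), beside 30.9% of the 12596 genes above 1 FPKM at day 6. For POL2 it was 72 of 86, or 83.7% (74.5 to 90.0%), beside 54.0% of those genes. All 33 members with a TAF9B peak also had a POL2 peak, beside 2906 of the 3895 genes above 1 FPKM with a TAF9B peak. The intervals cover the number of genes only, and each peak list came from 1 immunoprecipitation.

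The members are also more abundant than most genes, and among genes above 100 FPKM the shares were nearer. There 32 of 75 members (42.7%) had a TAF9B peak beside 36.7% of 922 other genes, and 68 of 75 (90.7%) a POL2 peak beside 79.1%. All 17 genes of complex V, all 9 of complex III and all 4 of complex II had a POL2 peak, against 32 of 38 in complex I and 10 of 18 in complex IV, which holds the tissue-restricted isoforms. For TAF9B the counts were 8 of 17, 4 of 9, 2 of 4, 14 of 38 and 5 of 18.

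**Figure D5:**
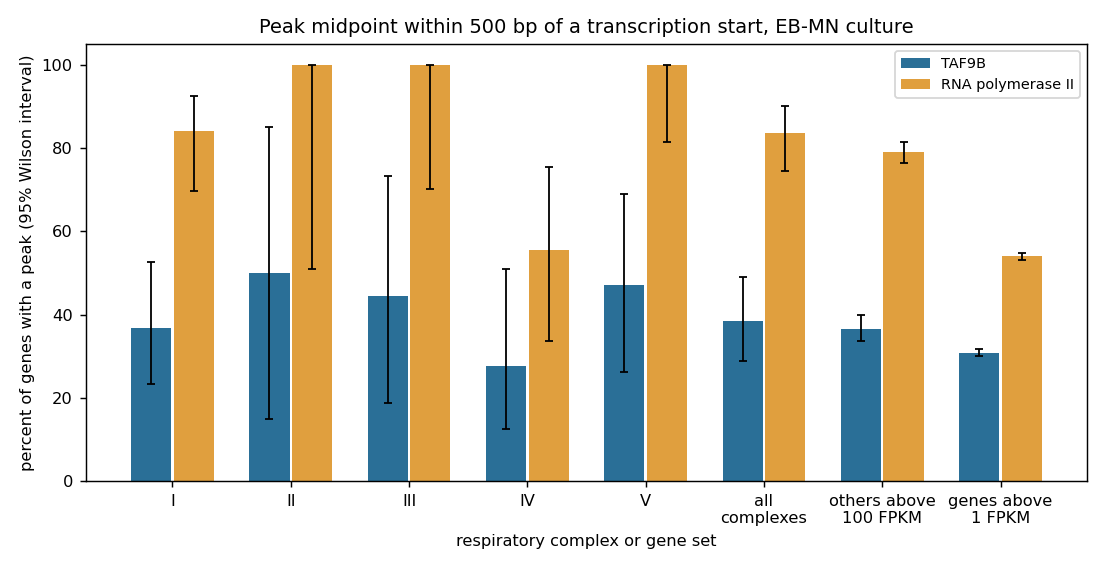
Percent of genes with a TAF9B or POL2 peak midpoint within 500 bp of a transcription start in motor neuron EBs, by complex, over all complexes, over other genes above 100 FPKM and over all genes above 1 FPKM at day 6; bars start at 0 and error bars are 95% Wilson intervals over genes. All genes of complexes II, III and V have a POL2 peak, and TAF9B peaks stand at 38.4% of the members beside 30.9% of all genes above 1 FPKM.

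The windows printed above fell on both sides of this division. The Cox7a2 window overlapped a TAF9B peak (chr9:79607542-79607785, score 96.95) and a POL2 peak (score 553.9), whereas no listed peak overlapped those of Cox7a1 and Cox8b. The Atp5j window overlapped a TAF9B peak at chr16:84835052-84835269 with a score of 69.3, near the low end of the range over members (51.6 to 185.5). No listed peak overlapped the window of the other Atp5j start. The Atp5k and Cox8a windows overlapped a POL2 peak only, and the Sdhb window met a TAF9B peak (chr4:140517185-140517391, score 106.9) at its last base.

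The day 6 ratios were set side by side for members with and without a TAF9B peak, and their difference was not tested. The 33 with a peak had a median log2 ratio of -0.26 (31 of 33 lower in KO) and the 50 above 1 FPKM with a start but no peak also -0.26 (41 of 50 lower). Over all genes above 1 FPKM the medians were -0.06 with and 0.03 without a TAF9B peak. Atp5k, the protein-coding member with the lowest ratio at day 6, had no TAF9B peak by this measure.

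The searched motifs were read in 250 bases before to 50 after each RefSeq start, on both strands, for the 69 members in the promoter table. The NRF1 motif was in 13.5% of the 74 member promoters, beside 2.71% of all 32851 promoters, and the YY1 motif also in 13.5%, beside 2.75%. The ETS motif of GABP (CCGGAAGT) was in 6.76%, beside 3.89%, the SP motif in 24.3%, beside 16.5%, and the TATA motif (TATAAA) in 12.2%, beside 13.6%. Read per gene over the 10134 genes above 1 FPKM at day 6 in the table, the shares were 6.03% for NRF1 and 5.18% for YY1, against 14.5% of members for each, whereas for SP they were 36.2% against 26.1% and for ETS 8.95% against 7.25%. For TATA the order turned, with 8.85% of these genes against 11.6% of members.

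The positions of the motifs differed. In 8 of the 10 members with a YY1 motif it read on the gene's strand and started 23 to 39 bases after the start, in Ndufc1, Atp5j2, Ndufa9, Ndufa3, Ndufs7, Ndufs6, Ndufs4 and Ndufb8. Positions and strands were read for members only, so there is no background over all genes. The motif also holds the letters ATG, and the place of start codons was not checked. NRF1 motifs were spread from 240 bases before the start, in Atp5l, to 33 after it, in Uqcrc1. Of the 10 members with an NRF1 motif, 1 had a TAF9B peak (Sdhb), beside 26 of the 59 without it, and of the 10 with a YY1 motif, 5 had one, beside 22 of the 59 without it. All of both groups had a POL2 peak, beside 49 of the 59 without the NRF1 motif and 49 of the 59 without the YY1 motif. A match is a run of letters only and does not show binding.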

How the data were processed

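RNA-seq reads had been aligned to mm9 with TopHat and summarised with Cuffdiff by the authors, who deposited 6 tables of FPKM, each with 2 libraries. Versions are not given in the sources used here. The tables also hold the study's own log2 ratios and p-values between 2 libraries, which were not used. The deposited TAF9B and POL2 peak lists hold positions and a score per peak, called with MACS after Bowtie alignment. The IgG control sample was not analysed here.

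RefSeq accessions were matched to symbols (22766 to 22832 of 23152 entries per table). Ratios were log2 of FPKM with no pseudocount, for genes above 1 FPKM in at least 1 library of a pair and without a failed estimate (status FAIL or HIDATA). "Past 2-fold" means a log2 ratio above 1 or below -1. With 1 library per condition no test was run, and depth is unknown. The ES cell WT library stands in 2 tables, at a constant factor of 1.09 between them. Transcript lengths and starts were taken from GENCODE vM1 (mm9), since the tables' loci can span neighbouring genes and no RefSeq starts on mm9 were at hand. Length curves were fitted by lowess (fraction 0.3, statsmodels 0.14.6) over log10 length and tested on simulated data. Motifs were searched in RefSeq promoters (GRCm38.p6).

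The named genes were the highest and lowest ratio of each complex in each comparison, genes past 2-fold (up to 10, otherwise the 5 highest and 5 lowest), the 10 most abundant, the isoform pairs, the Sdh genes, Atp5j and Atp5k. Ndufa1, Ndufv3, Ndufb11 and Ndufa5 in the cultures were added after their values were seen. Members and lists were chosen with earlier results of these data known. Of the genes on the lists, 6 did not match (Sco2, Pet117, Hba-a1, Hbb-b1, Hbb-b2 and Snhg11).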

Additional observations from a re-analysis of the deposited data

Results flagged for a closer look

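The pseudogene Ndufs5-ps moved in opposite directions between the libraries labelled KO and WT, with a log2 ratio of -1.87 at EB day 4 and of 1.03 in spinal column, and this difference was not tested. It was at 57.0 FPKM in WT and 15.6 in KO at day 4, and at 65.5 and 133.7 FPKM in spinal column. The coding gene Ndufs5, of which it is a copy, was at 77.8 and 92.3 FPKM at day 4 and at 232.5 and 528.8 FPKM in spinal column.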

How the results depend on the processing

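The median over the respiratory genes and its counts past 2-fold were recomputed in each comparison under other settings, and a median was read as moved when it shifted by 0.2 or more and a count when it changed by over 1.5 times. In spinal column the median log2 ratio was 0.98, with 42 genes past 2-fold higher. With the length trend removed it was 0.25 with 5 genes, and 0.25 with 5 genes at a lowess fraction of 0.6. Chosen after seeing the data, the median transcript length gave 0.59 with 6 genes, the longest protein-coding transcript 0.22 with 4, the shortest consensus coding transcript 0.27 with 2 and the coding length 0.37 with 0. A 1.5-fold threshold gave 77, and the share of all genes at that threshold was not taken. For spinal cord over ES cells the median of 0.02 became 0.29 when centred, with 15 genes higher, and 0.36 with the length trend removed, with 17 higher. The ES cell table's own values gave 10 higher, and 1.5-fold 21 higher and 18 lower. Shares of all genes past a threshold were taken at 2-fold in the main setting and, for spinal column, with the length trend removed. Counts under the other settings, here and below, therefore cannot be set against all genes. In ES cells, no filter on low values gave 1 higher and 1 lower, and at day 2 a 1.5-fold threshold gave 2 lower. At day 4, adding 1 FPKM left 1 higher, a 10 FPKM minimum 0 higher, no filter 2 lower, the length trend removed 0 lower (Ndufs5-ps, the 1 gene counted, has no transcript length and could not be corrected) and 1.5-fold 3 lower. At day 6, a 10 FPKM minimum left 0 higher and 1.5-fold gave 4 lower. Peaks with a score above their list's median lay at 25.6% of members for TAF9B, beside 20.1% of genes above 1 FPKM, and at 60.5% for POL2, beside 31.0%. The cause of these changes was not tested, except where the alternative's own minimum, threshold or missing length sets the count. The median over the respiratory genes kept its sign under these settings in each comparison except day 2, where -0.01 became 0.008 with the length trend removed. Removing that trend also took the day 4 median from -0.17 to -0.09. Medians of single complexes and lists were recomputed only by centring and by removing the length trend, and some changed sign, among them complex IV at days 4 and 6 (0.13 and 0.03 with the length trend removed) and glycolysis in spinal column (-0.19). Lengths of the transcripts named in the tables could not be had, and that alternative was not run. No replicate could be left out, since each condition had 1 library, and 1 library per condition limits every ratio. No paired analysis was possible because each group held 1 sample and no test was run.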
